A study of Mus musculus with 42 samples.

Results

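Among the genes that handle cholesterol in the brain, a list of 31 is described here: 18 enzymes of cholesterol synthesis, 4 regulators of the sterol response, and 9 genes of uptake, transport, storage and export. The enzymes, in the order of the pathway, are Acat2, Hmgcs1, Mvk, Pmvk, Mvd, Idi1, Fdps, Fdft1, Sqle, Lss, Cyp51, Tm7sf2, Msmo1, Nsdhl, Hsd17b7, Ebp, Sc5d and Dhcr7. The regulators are Srebf2, Scap, Insig1 and Insig2, and the other genes are Mylip, Stard4, Npc1, Npc2, Soat1, Cyp46a1, Abca1, Abcg1 and Apoe. They were taken as a list of symbols that was drawn up with earlier results of these data known. Each symbol matched 1 row in each of the deposited count tables, which list 35275 genes. All 31 passed the filter on low counts, and their smallest count in any library was 277, for Nsdhl. RNA-seq was done on the cerebellum of male C57BL/6 mice that were fed ad libitum (AL), fasted for 16 h every day (IF16) or fasted for 24 h on alternate days (EOD), from 3 to 6 months of age. Mice of the groups AL-R, IF16-R and EOD-R went through the same 3 regimens, were then fed ad libitum for 2 months and were sampled at 8 months of age. Each group had 5 libraries. The labels give neither the hour of collection within the fasting cycle nor which animal a library came from.

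Circulating lipoproteins barely cross into the brain, so brain cells make their own cholesterol. In this pathway acetyl-CoA is joined into mevalonate, activated to isoprene units, condensed to squalene, closed into the ring of lanosterol and trimmed to cholesterol. The transcription factor encoded by Srebf2 drives these enzymes when membrane sterol is low: Scap escorts it out of the endoplasmic reticulum, and the Insig proteins hold it back there when sterol is plentiful. Astrocytes ship cholesterol on particles built with Apoe, oligodendrocytes use much of it for myelin, and neurons dispose of the surplus by hydroxylation through Cyp46a1.

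Total counts per library ranged from 26799825 to 36167435. Markers of the granule cells and Purkinje cells of the cerebellum were abundant, with summed levels of 2670 to 3490 CPM and 3848 to 5827 CPM over the regimen libraries. Levels in CPM are counts scaled to a common library total after TMM normalization, which was done within each table, so CPM values are not compared between the regimen libraries and the refed libraries. Libraries of the regimens were more scattered, with a common biological coefficient of variation of 14.3% against 8.05% after refeeding. AL replicate 4, AL replicate 5 and IF16 replicate 1 stood apart, with a length gradient (the slope of log2 CPM on log2 gene length) of -0.158, -0.106 and -0.114, and the comparisons that rest on them are given with and without them. EOD replicate 4 lay on the other side at 0.139, with the highest sum of astrocyte markers of its table (3834 CPM). Choroid plexus, which is not cerebellum, entered the dissections unevenly, with summed markers of 172 to 5122 CPM over the regimen libraries.

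Compared per length of gene, in the deposited FPKM (fragments scaled by gene length and library total), Apoe was by far the most abundant of the 31 transcripts at 1733 ± 491 in AL (SD, n = 5). The next level was held by Fdps (farnesyl diphosphate synthase) at 34.6 ± 5.44, Insig1 at 32.0 ± 2.12 and Srebf2 at 31.6 ± 1.04, which did not differ beyond their spread. Hmgcs1, which makes the precursor of mevalonate, and the kinase Pmvk were close to these at 28.4 ± 1.83 and 28.5 ± 5.22. At the low end stood the lanosterol synthase Lss at 3.53 ± 0.688, Hsd17b7, a ketosteroid reductase of the late pathway, at 3.20 ± 0.611, and the sterol acyltransferase Soat1, which stores cholesterol as ester, at 2.40 ± 0.210. Abca1, the membrane pump that loads cholesterol onto lipoproteins, was low at 3.93 ± 1.27, while its relative Abcg1 was at 29.3 ± 1.18. In each of the 6 groups Apoe was the highest of the 31 and Soat1, Hsd17b7 and Lss, in that order, were the lowest. For Insig1 and Insig2 the file lists an identical length of 2697 bases, which bears on their FPKM but not on their fold changes.

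**Figure D1:**
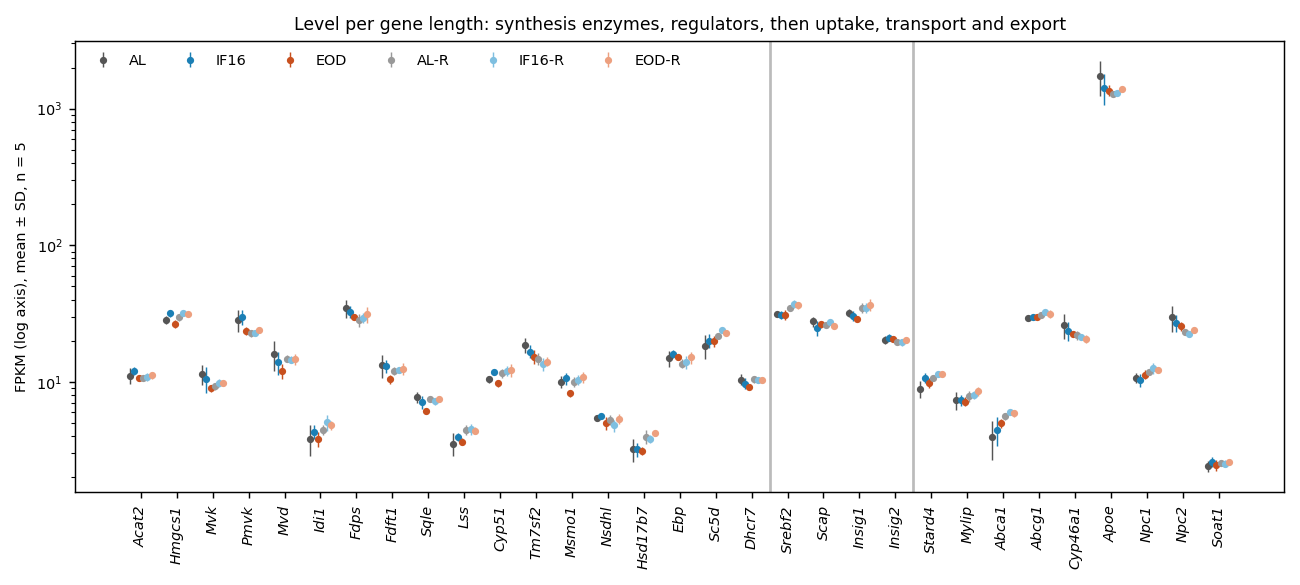
Mean FPKM ± SD (n = 5, log axis) of each of the 31 genes in the 6 groups, with vertical lines between the synthesis enzymes, the regulators, and the genes of uptake, transport and export. Apoe lies far above the others in each group, whereas Soat1, Hsd17b7 and Lss lie at the bottom.

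The spread of the members differed between groups. In AL the coefficient of variation over the 5 libraries had a median of 14.8% over the 31 genes and reached 30.7% for Apoe. Without AL replicates 4 and 5 the median was 7.03% and Apoe varied by 10.8%. In IF16 it had a median of 9.59% (8.03% without replicate 1), in EOD 6.71%, and in AL-R, IF16-R and EOD-R 5.97%, 6.39% and 5.44%. Insig1 in EOD varied by only 2.15%, and Srebf2 in AL by 1.81%.

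The comparison of the fasting regimens with each other asked whether alternate-day and daily fasting left different levels, and it showed the most uniform pattern among the synthesis enzymes. All 18 had a log2 fold change below 0 in EOD against IF16, where 50.2% of all 16577 genes tested did, with a median of -0.16 against -0.00065 over all genes. With edgeR's quasi-likelihood test none of the 31 genes, and none of all genes tested (0%), had a Benjamini-Hochberg adjusted p under 0.05, the threshold for a call throughout. At an unadjusted p under 0.05 there were 6 members, all of them synthesis enzymes and all lower in EOD, against 1.86% of all genes lower at that threshold. DESeq2 called 0 members and had 7 at an unadjusted p under 0.05. Its smallest adjusted p among the enzymes was 0.0732, where edgeR's was 0.977. In a bulk tissue, fewer cells of a type and less RNA per cell cannot be told apart.

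Cyp51, the lanosterol demethylase that removes the first methyl group from the sterol ring (ENSMUSG00000001467, chromosome 5, 4081145-4104746), had the smallest p. Its values were 46.7, 46.8, 46.5, 43.9 and 44.8 CPM in IF16 and 38.3, 39.6, 40.4, 40.4 and 35.2 CPM in EOD. Every EOD library lay below every IF16 library. The log2 fold change was -0.24 (SE 0.0567, 95% interval -0.36 to -0.12, edgeR adjusted p = 0.977). Msmo1, the methylsterol monooxygenase that acts later on the ring (ENSMUSG00000031604, chromosome 8, 64718139-64733792), had 33.5, 29.3, 33.8, 32.6 and 27.2 CPM in IF16 and 24.5, 25.3, 26.3, 23.7 and 23.6 CPM in EOD. Again no EOD library reached the lowest IF16 library, and the log2 fold change was -0.34 (SE 0.0819, 95% interval -0.51 to -0.17, edgeR adjusted p = 0.977).

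Hmgcs1, the HMG-CoA synthase at the entry of the pathway (ENSMUSG00000093930, chromosome 13, 119690462-119708086), had 101, 106, 106, 103 and 94.99 CPM in IF16 and 89.2, 92.0, 81.2, 92.9 and 78.2 CPM in EOD. The groups did not overlap, and the log2 fold change was -0.24 (SE 0.0630, 95% interval -0.37 to -0.10, edgeR adjusted p = 0.977). Pmvk, the phosphomevalonate kinase, had 42.9, 36.0, 32.3, 33.1 and 32.0 CPM in IF16 and 27.6, 27.5, 28.5, 26.9 and 31.1 CPM in EOD. These libraries did not overlap either, with a log2 fold change of -0.32 (SE 0.118, edgeR adjusted p = 0.977). The fifth enzyme without overlap was Acat2, the acetyl-CoA acetyltransferase that starts the pathway, at 27.0 ± 1.84 CPM in IF16 and 24.1 ± 0.629 CPM in EOD, although its 95% interval, -0.35 to 0.022, includes 0. In all, 5 of 18 enzymes had library values that did not overlap and were lower in EOD, beside 0.374% of all genes.

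The remaining enzymes differed less from IF16 to EOD. Fdft1 (squalene synthase) had a log2 fold change of -0.30 (95% interval -0.55 to -0.046) and Sqle (squalene epoxidase, which opens the sterol branch) one of -0.18 (-0.37 to -0.0021), both with an edgeR adjusted p of 0.977 and with overlapping libraries. Mvk was at -0.22, Mvd at -0.20, Nsdhl and Idi1 at -0.16 each, Fdps and Tm7sf2 at -0.11 each, Lss at -0.090 and Dhcr7, a final reductase of the pathway, at -0.054. Smallest were the differences of 3 late enzymes. They were -0.016 for Hsd17b7 (95% interval -0.25 to 0.22), -0.052 for the sterol isomerase Ebp (-0.24 to 0.14) and -0.0026 for the sterol desaturase Sc5d (-0.25 to 0.24). These intervals include differences as large as that of Cyp51, so a smaller response of the late enzymes was not shown.

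Regulators and transport genes lay on both sides of 0, and the difference between the lists was not tested. Of the 4 regulators 2 lay below 0 and 2 above, from -0.067 for Insig1 to 0.12 for Scap. Of the 9 genes of uptake, transport and export 6 lay below 0 and 3 above, with a median of -0.056 and none at an unadjusted p under 0.05. The largest values in this set were 0.18 for Abca1 (95% interval -0.22 to 0.59) and 0.16 for Npc1, the lysosomal exit transporter (95% interval -0.0067 to 0.33). Leaving out the 3 libraries that stood apart kept the count of 18 enzymes below 0, with a median of -0.13, and 5 enzymes stayed at an unadjusted p under 0.05. Without EOD replicate 4 the count was 18 with a median of -0.16 and 6 members at that threshold. Without IF16 replicate 1 alone, 3 members were at it. With the mean of oligodendrocyte markers as a covariate, an alternative chosen after seeing the data, 13 of 18 enzymes were below 0 and 6 were at that threshold. Choroid plexus markers were higher in EOD than in IF16, 11 of 11 above 0 with a median of 0.94 and none at an unadjusted p under 0.05, and summed to 1192 to 3895 CPM in EOD and 172 to 4179 CPM in IF16. With their mean as a covariate 16 of 18 enzymes were below 0 and 7 passed the unadjusted threshold.

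**Figure D2:**
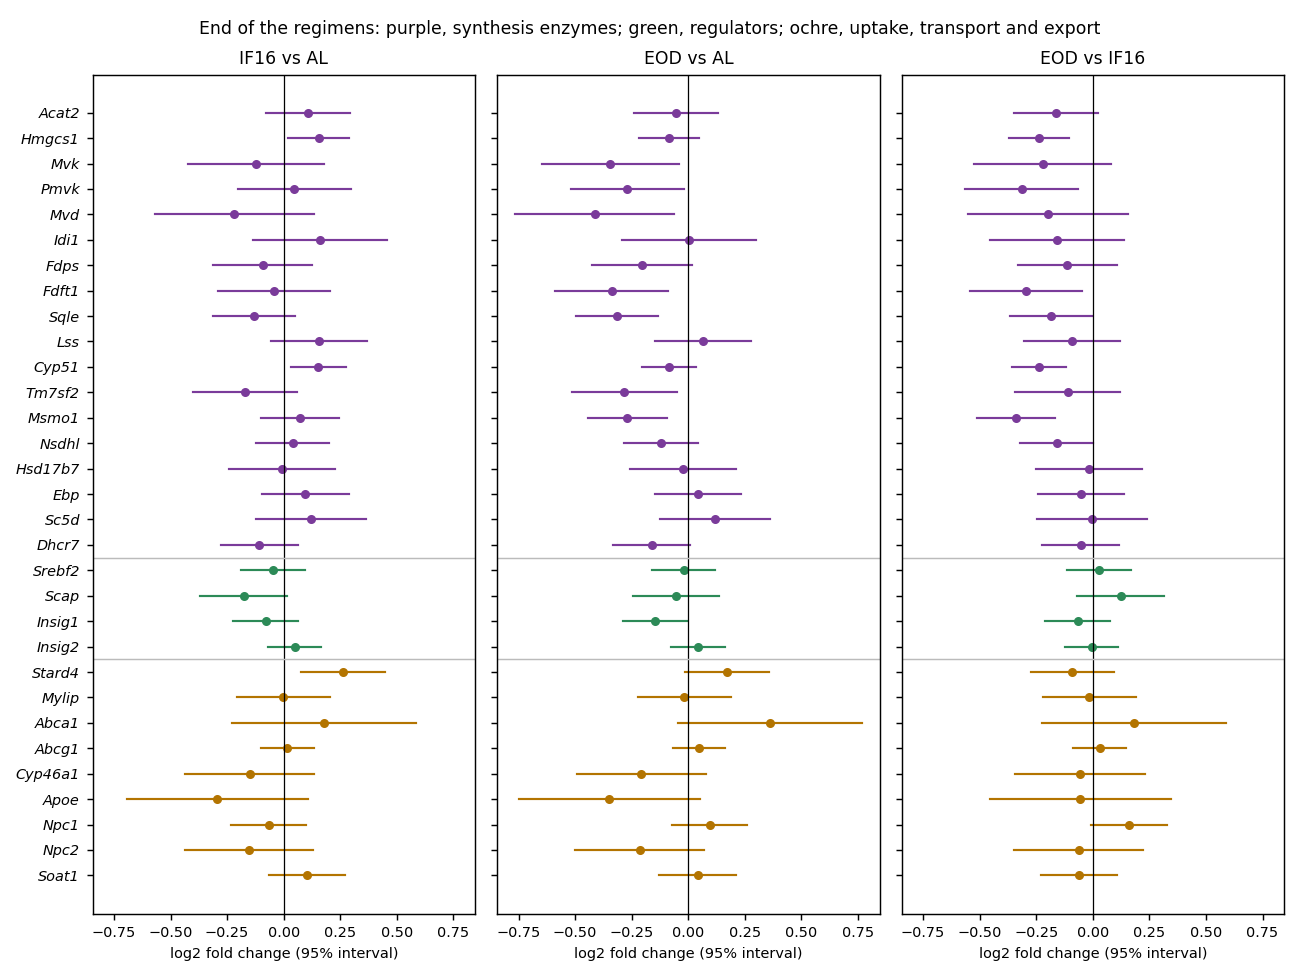
Log2 fold change of each gene with its 95% interval at the end of the regimens, in IF16 against AL, EOD against AL and EOD against IF16 (n = 5 per group, edgeR). In the right panel all 18 synthesis enzymes (purple) lie at or left of 0, while regulators (green) and transport genes (ochre) lie on both sides.

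Because Cyp51, Msmo1 and Hmgcs1 carried the smallest p-values in that comparison, the sequence upstream of each is shown, from RefSeq on GRCm38.p6. Of the 31 genes, 25 had a window of 250 bases before to 50 bases after the annotated start, 33 windows in all. Abcg1, Fdft1, Fdps, Npc1, Sqle and Stard4 had none. Sterol-responsive promoters are known for short sites bound by the Srebf2 protein together with a CCAAT box, bound by the factor NF-Y. The windows were searched on both strands for a sterol-element-like motif, TCACNCCAC, and for CCAAT, which reads ATTGG when it lies on the other strand, and matches are in capitals below. The motifs do not overlap in these stretches. The stretches are chr13:119690171-119690330 on the plus strand for Hmgcs1, chr5:4104708-4104817 on the minus strand for Cyp51 and chr8:64733609-64733758 on the minus strand for Msmo1, each written from 5′ to 3′ along the gene.
Hmgcs1: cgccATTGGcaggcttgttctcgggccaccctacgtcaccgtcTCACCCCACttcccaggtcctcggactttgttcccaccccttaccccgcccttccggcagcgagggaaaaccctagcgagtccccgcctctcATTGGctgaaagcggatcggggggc
Cyp51: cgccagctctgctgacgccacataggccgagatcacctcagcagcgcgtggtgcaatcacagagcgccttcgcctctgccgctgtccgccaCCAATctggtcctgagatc
Msmo1: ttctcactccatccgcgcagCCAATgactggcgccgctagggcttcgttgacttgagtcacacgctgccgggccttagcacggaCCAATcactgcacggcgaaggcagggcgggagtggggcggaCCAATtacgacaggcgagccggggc

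In Hmgcs1 the sterol-element-like match began 137 bases before the start, between a pair of CCAAT matches. It was the only such match in the 33 member windows, while 1.24% of all 32851 windows held one. Msmo1 had 3 CCAAT matches, at 160, 96 and 55 bases before the start, and Cyp51 had 1 at 29 bases. Among genes that had a window, CCAAT was found in 14 of 15 synthesis enzymes, 3 of 4 regulators and 4 of 6 transport genes, beside 11096 of 27025 genes in all. By window it was found in 14 of 18 for the enzymes (77.8%), 3 of 7 for the regulators (42.9%) and 4 of 8 for the transport genes (50%), beside 37.4% of all windows. A match describes the letters in the window and does not show a bound site. Only this exact pattern was searched for the sterol element, so a window without a match may still hold a site spelled otherwise.

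Against mice fed ad libitum, EOD libraries also tended to lower values of the synthesis enzymes, but this comparison rested more on single libraries. Of the 18 enzymes 14 had a log2 fold change below 0, where 53.3% of all genes did, with a median of -0.14 against -0.018 over all genes. No member was among the 11 genes called by edgeR (0.0664% of 16577), and DESeq2 called no member either. At an unadjusted p under 0.05 there were 8 members, all lower in EOD: 7 synthesis enzymes and Insig1, against 7.4% of all genes lower at that threshold. DESeq2 had 8 as well, and its smallest adjusted p among the enzymes was 0.0663, where edgeR's was 0.228.

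Sqle had the smallest p of the members. Its values were 33.1, 31.4, 35.3, 40.4 and 32.1 CPM in AL and 26.5, 29.2, 25.6, 30.1 and 27.0 CPM in EOD. Every EOD library lay below every AL library, which held for 1.53% of all genes and for no other member. The log2 fold change was -0.31 (SE 0.0859, 95% interval -0.50 to -0.13, edgeR adjusted p = 0.228). For Msmo1 the AL values were 30.1, 24.8, 30.5, 33.4 and 29.95 CPM, so that AL replicate 2 lay inside the EOD range, and the log2 fold change was -0.27 (SE 0.0819, edgeR adjusted p = 0.259).

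For 4 further enzymes AL replicates 4 and 5 were the highest libraries of the AL group. Fdft1 had 31.4, 31.8, 36.5, 51.0 and 39.5 CPM in AL against 30.1 ± 1.77 CPM in EOD, a log2 fold change of -0.34 (edgeR adjusted p = 0.309). Mvd, the mevalonate diphosphate decarboxylase, had 20.5, 23.9, 25.2, 39.3 and 33.3 CPM in AL against 21.3 ± 2.52 CPM in EOD (log2 fold change -0.41, edgeR adjusted p = 0.325). Tm7sf2, a sterol reductase, had 24.3, 25.4, 25.0, 33.5 and 31.7 CPM in AL against 23.0 ± 2.38 CPM in EOD (log2 fold change -0.28, edgeR adjusted p = 0.318). Mvk, the mevalonate kinase, had 20.0, 26.3, 26.6, 34.4 and 28.9 CPM in AL against 21.4 ± 1.13 CPM in EOD (log2 fold change -0.34, edgeR adjusted p = 0.325). AL replicate 4 held the top value of its group in each of these 4 genes.

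Without AL replicate 4, AL replicate 5 and IF16 replicate 1, 16 of 18 enzymes were below 0 in EOD against AL with a median of -0.12, but the count at an unadjusted p under 0.05 became 2 lower and 1 higher. Sqle was then at -0.27 (SE 0.0862) and Msmo1 at -0.21 (SE 0.0889), the 2 enzymes still lower at that threshold, whereas Mvd was at -0.13 (SE 0.136), Mvk at -0.19 (SE 0.119), Tm7sf2 at -0.12 (SE 0.0958) and Fdft1 at -0.15 (SE 0.0873). Leaving out single libraries moved the count of 8 members to 13 without AL replicate 1, to 3 without AL replicate 4 or AL replicate 5, and to 5 without EOD replicate 2 or EOD replicate 4.

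Among the regulators Insig1 had 77.5, 82.3, 92.7, 91.8 and 87.7 CPM in AL and 76.9, 78.1, 77.3, 80.9 and 76.9 CPM in EOD. The EOD values were tightly grouped and overlapped the lowest AL library, and the log2 fold change was -0.15 (edgeR adjusted p = 0.343). Srebf2 was at -0.020 (95% interval -0.16 to 0.12), Scap at -0.054 (-0.25 to 0.14) and Insig2 at 0.044 (-0.074 to 0.16). None of the 9 transport and export genes was at an unadjusted p under 0.05 in EOD against AL. Their log2 fold changes ran from -0.35 for Apoe (95% interval -0.75 to 0.050) to 0.36 for Abca1 (-0.046 to 0.77), with a median of 0.042. Both genes were widely spread in AL, where Apoe had 1673, 2024, 2038, 3491 and 2848 CPM and Abca1 52.4, 48.0, 46.5, 25.3 and 28.7 CPM. The same libraries, AL replicates 4 and 5, were highest for Apoe and lowest for Abca1. The values of the others lay between, at -0.22 for Npc2, -0.21 for the hydroxylase Cyp46a1, -0.018 for Mylip, a ligase that marks lipoprotein receptors for breakdown, 0.042 for Soat1, 0.047 for Abcg1, 0.094 for Npc1 and 0.17 for Stard4 (95% interval -0.014 to 0.36).

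The daily fast showed no common direction. In IF16 against AL 10 of 18 enzymes lay above 0, where 48.7% of all genes did, with a median of 0.043, and the transport genes had 4 above and 5 below. No member was among the 8 genes called by edgeR (0.0483%), DESeq2 called no member, and 3 members were at an unadjusted p under 0.05 in either tool, all higher in IF16, against 4.35% of all genes. This comparison and that of EOD with AL share the AL libraries.

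Stard4, a carrier of cholesterol between membranes (ENSMUSG00000024378, chromosome 18, 33199355-33213862), had 53.4, 44.2, 46.5, 40.4 and 40.8 CPM in AL and 53.4, 48.7, 60.1, 52.8 and 55.1 CPM in IF16. AL replicate 1 reached into the IF16 range, and the log2 fold change was 0.26 (SE 0.0872, 95% interval 0.077 to 0.45, edgeR adjusted p = 0.363). Cyp51 had 42.6, 41.5, 41.3, 42.4 and 37.9 CPM in AL, all below the IF16 libraries, which held for 0.857% of all genes, and its log2 fold change was 0.15 (SE 0.0566, edgeR adjusted p = 0.419). Hmgcs1, at 94.9, 86.6, 97.9, 88.4 and 91.7 CPM in AL, overlapped IF16 and had a log2 fold change of 0.15 (edgeR adjusted p = 0.446). Without the 3 libraries that stood apart the values were 0.17 (SE 0.0947), 0.12 (SE 0.0626) and 0.14 (SE 0.0754) for Stard4, Cyp51 and Hmgcs1, none at an unadjusted p under 0.05. In that fit 13 of 18 enzymes lay above 0 with a median of 0.019, and 3 others were higher at that threshold, Acat2 at 0.21 (SE 0.0758), Pmvk at 0.18 (SE 0.0711) and Ebp at 0.23 (SE 0.0771). The count of 3 became 6 without AL replicate 1. For Cyp51 and Hmgcs1 the order of the group means was therefore EOD, AL, IF16, with EOD and AL overlapping in both genes.

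**Figure D3:**
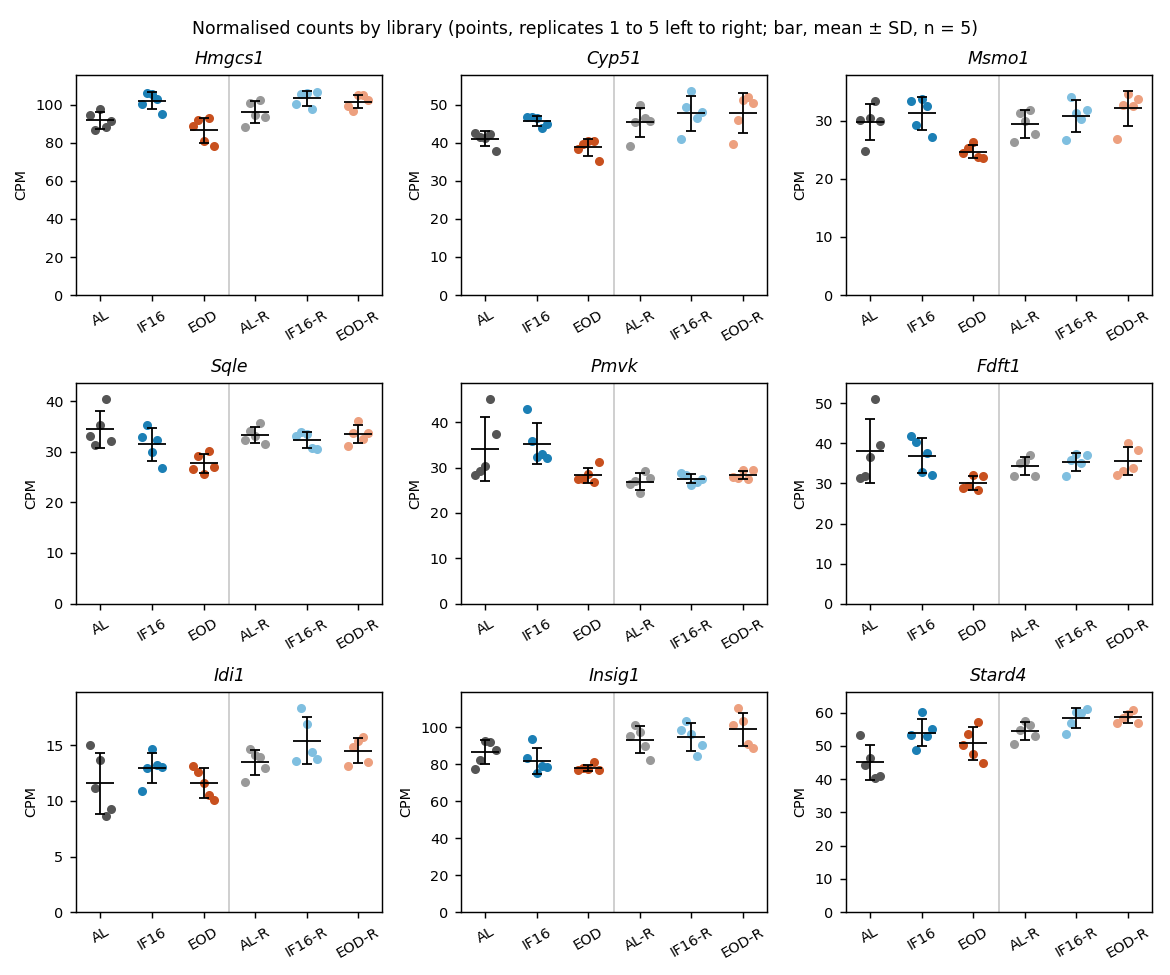
CPM in each library (points) with mean ± SD (n = 5) for 9 of the genes, with a vertical line between the table of the regimens and that of refeeding. In EOD the points of Cyp51, Msmo1, Hmgcs1 and Pmvk lie below those of IF16, and for Msmo1 and Cyp51 replicate 1 is the lowest library of each refed group.

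Taken over all 18 enzymes, the mean log2 CPM of a library spanned 4.73 to 4.94 in AL, 4.80 to 4.91 in IF16 and 4.67 to 4.71 in EOD. The highest EOD library, at 4.705, thus lay below the lowest AL library, at 4.735, and the EOD libraries spanned a far narrower range (SD 0.012) than those of AL (SD 0.075) and IF16 (SD 0.054). Without the 3 libraries that stood apart the AL libraries spanned 4.73 to 4.82 and the IF16 libraries 4.80 to 4.91. Since the enzymes were listed with earlier results known, this is a description and carries no test. The mean of the 9 transport and export genes overlapped, from 6.16 to 6.22 in AL, 6.17 to 6.21 in IF16 and 6.16 to 6.32 in EOD.

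Oligodendrocyte markers and the length gradient moved with the enzymes. Over the 15 libraries of the regimens, the enzyme mean and the mean of 8 oligodendrocyte markers had a Pearson r of 0.802 and a Spearman rho of 0.757, and with group means removed an r of 0.891 and a rho of 0.896 (r = 0.794 once the 2 most extreme libraries by marker level were left out). The highest marker means, 8.24, 8.11 and 8.10 log2 CPM, were those of AL replicate 4, AL replicate 5 and IF16 replicate 1. These are also the libraries of lowest length gradient, so the relations to the markers and to the gradient are not separate. With the length gradient the enzyme mean had an r of -0.644, or -0.703 with group means removed, and -0.443 and -0.496 once the 2 most extreme libraries were left out. These are given as descriptions of 32 relations computed, since the libraries share their normalization. Summed oligodendrocyte markers overlapped between the groups, at 5661 to 6697 CPM in AL, 5592 to 6102 CPM in IF16 and 5606 to 6279 CPM in EOD, and no marker among the 8 was at 0 in the group means. In EOD against AL 7 of 8 of these markers were below 0 and 2 were lower at an unadjusted p under 0.05, Mag at -0.45 (SE 0.119) and Opalin at -0.67 (SE 0.235), while Cldn11 was higher at 0.21 (SE 0.0704). In EOD against IF16 6 of 8 were below 0 and none was at that threshold. Whether oligodendrocyte content accounts for the enzyme values was not tested beyond the covariate given above, with which EOD against AL had 16 of 18 enzymes below 0 and 2 at an unadjusted p under 0.05 in that direction. With that covariate Sqle was at -0.24 (SE 0.0835) and Msmo1 at -0.20 (SE 0.0807).

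The 3 libraries that stood apart were picked by their length gradient, so the values of short and long members in them are a description. All 6 members under 2000 bases (Mvd, Apoe, Tm7sf2, Pmvk, Ebp and Fdps) lay above the median of their group in AL replicate 4, in AL replicate 5 and in IF16 replicate 1. Of the 9 members over 4000 bases 3, 1 and 2 lay above it. Abca1, the longest at 10262 bases, was lowest of the 31 in each, by -0.88, -0.70 and -0.71 on the log2 scale, and Apoe, at 1386 bases, was highest, by 0.78, 0.48 and 0.59.

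**Figure D4:**
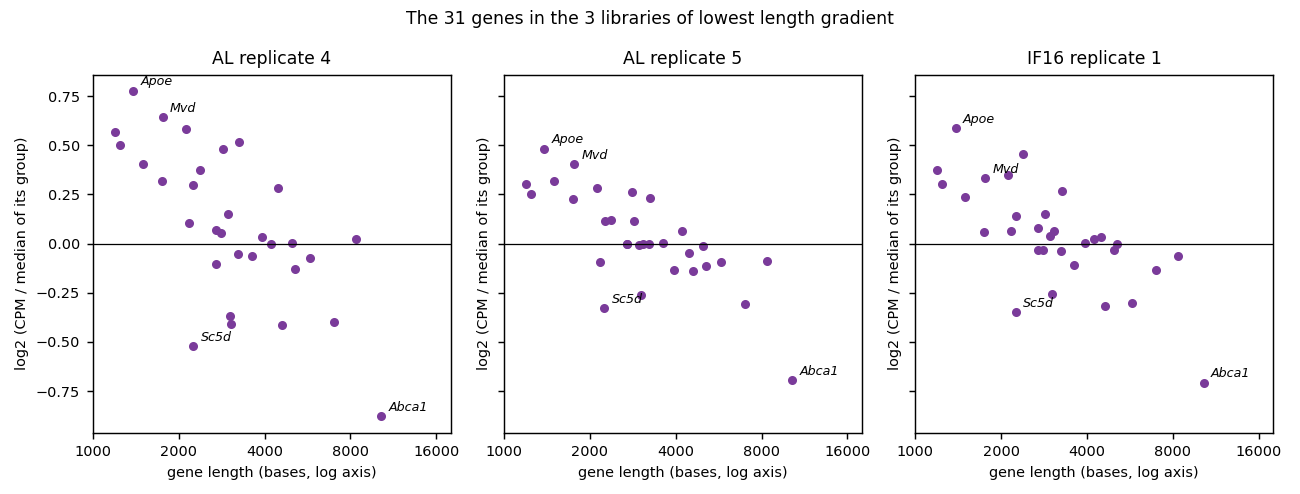
Log2 ratio of each gene's CPM to the median of its group, against gene length (bases, log axis), in the 3 libraries with the lowest length gradient. Short genes such as Apoe and Mvd lie above 0, and Abca1, the longest, lies lowest in each panel.

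After 2 months of refeeding the enzymes lay on both sides of 0 between the former fasting groups. In EOD-R against IF16-R 11 of 18 enzymes lay above 0, where 52.1% of all genes did, with a median of 0.010, and none was at an unadjusted p under 0.05. Cyp51 was at 0.0039 (95% interval -0.16 to 0.17), Msmo1 at 0.058 (-0.096 to 0.21) and Hmgcs1 at -0.023 (-0.11 to 0.065). No member was among the 3 genes called by edgeR (0.0182% of 16444), and DESeq2 called none. The smallest DESeq2 adjusted p among the regulators was 0.0772, where edgeR's was 0.307. At an unadjusted p under 0.05, edgeR and DESeq2 each had 2 members, beside 9.75% of all genes. One was Scap, at 114, 112, 121, 122 and 117 CPM in IF16-R and 114, 104, 108, 108 and 111 CPM in EOD-R, with a log2 fold change of -0.11 (edgeR adjusted p = 0.307). The other was Npc2, the soluble partner of Npc1 in the lysosome, at 73.3 ± 3.67 CPM in IF16-R and 78.6 ± 4.06 CPM in EOD-R, with a log2 fold change of 0.10 (edgeR adjusted p = 0.489). Libraries overlapped for both, and the count became 1 without any one of IF16-R replicate 3, IF16-R replicate 5, EOD-R replicate 3 or EOD-R replicate 4. With the length gradient as a covariate it was 0, and 14 of 18 enzymes then lay below 0 with a median of -0.028. With the replicate number as a block, 3 enzymes and 2 transport genes were higher and 1 regulator lower at an unadjusted p under 0.05.

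In EOD-R against AL-R the enzymes lay mostly above 0, 14 of 18 beside 50.3% of all genes, with a median of 0.077, and so did 8 of the 9 transport and export genes. No member was among the 7 genes called by edgeR (0.0426%), and DESeq2 called none. The 2 members at an unadjusted p under 0.05, in edgeR and in DESeq2 alike, were Apoe and Stard4, both higher, against 4.51% of all genes. Apoe had 1696, 1696, 1737, 1938 and 1818 CPM in AL-R and 1838, 1849.5, 1906, 1948 and 2039 CPM in EOD-R, with overlap at AL-R replicate 4 and a log2 fold change of 0.11 (SE 0.0403, edgeR adjusted p = 0.446). Stard4 had 54.4 ± 2.65 CPM in AL-R and 58.5 ± 1.73 CPM in EOD-R, with a log2 fold change of 0.11 (SE 0.0437, edgeR adjusted p = 0.521). Beside this, 7 of 8 oligodendrocyte markers lay above 0 with 4 at an unadjusted p under 0.05, and 8 of 8 astrocyte markers lay above 0 with 2 at it. Oligodendrocyte markers summed to 4977 to 5556 CPM in AL-R and 5577 to 6669 CPM in EOD-R, with no overlap, and astrocyte markers to 2903 to 3167 CPM and 3065 to 3400 CPM. The mean of the oligodendrocyte markers did not overlap either, at 7.63 to 7.79 log2 CPM in AL-R and 7.82 to 8.00 in EOD-R. Oligodendrocyte marker level and group therefore cannot be told apart in this comparison. With the mean of the oligodendrocyte markers as a covariate Apoe was at 0.032 (SE 0.0426) and Stard4 at 0.063 (SE 0.0541), neither at the unadjusted threshold. Other members were at that threshold in this fit: 1 synthesis enzyme and 1 regulator were higher, and 1 transport gene was lower. The part of the astrocyte markers was not tested. The count of 2 became 6 without EOD-R replicate 1, 5 without AL-R replicate 2 or AL-R replicate 4, 4 without EOD-R replicate 2, and 1 without AL-R replicate 1, AL-R replicate 5 or EOD-R replicate 4. With the replicate number as a block, 3 enzymes, 1 regulator and 3 transport genes were higher at an unadjusted p under 0.05. The smallest edgeR adjusted p of the members in that fit was 0.0652, for a transport gene.

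In IF16-R against AL-R 12 of 18 enzymes, 4 of 4 regulators and 6 of 9 transport genes lay above 0, where 48.8% of all genes did. No member was among the 28 genes called by edgeR (0.17%), DESeq2 called none, and each tool had 7 members at an unadjusted p under 0.05, all higher in IF16-R, against 4.76% of all genes. Sc5d had 47.6, 51.5, 51.0, 47.7 and 46.3 CPM in AL-R and 49.9, 52.8, 56.4, 57.3 and 53.4 CPM in IF16-R, with a log2 fold change of 0.14 (SE 0.0459, edgeR adjusted p = 0.323). Abca1 had 55.1, 62.6, 56.4, 54.1 and 56.7 CPM in AL-R and 60.5, 59.8, 63.6, 64.4 and 65.0 CPM in IF16-R, with a log2 fold change of 0.14 (SE 0.0492, edgeR adjusted p = 0.361). In both genes 1 or 2 AL-R libraries reached into the IF16-R range. The other members at that threshold had log2 fold changes of 0.11 for Hmgcs1, 0.085 for Scap, 0.10 for Stard4, 0.20 for the isomerase Idi1 and 0.12 for Srebf2, with edgeR adjusted p-values from 0.434 to 0.514.

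The length gradient of the libraries separated IF16-R from AL-R, at 0.0046 to 0.042 against -0.026 to -0.0036, so that gradient and group cannot be told apart in this comparison. With the gradient as a covariate no member was at an unadjusted p under 0.05, Sc5d was at 0.075 (SE 0.0648), and Abca1 was at -0.0048 (SE 0.0580). The count of 7 became 11 without IF16-R replicate 1, 4 without AL-R replicate 5, 3 without IF16-R replicate 3 and 2 without AL-R replicate 1. Astrocyte markers moved the same way, with 8 of 8 above 0, 3 at an unadjusted p under 0.05 and 1 of these called by edgeR, and summed to 2903 to 3167 CPM in AL-R and 3159 to 3393 CPM in IF16-R. Their part in the member values was not tested. Of the oligodendrocyte markers 7 of 8 were above 0 and 2 were at that threshold, with sums of 4977 to 5556 CPM in AL-R and 5145 to 7008 CPM in IF16-R, and with their mean as a covariate 3 members were at it.

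**Figure D5:**
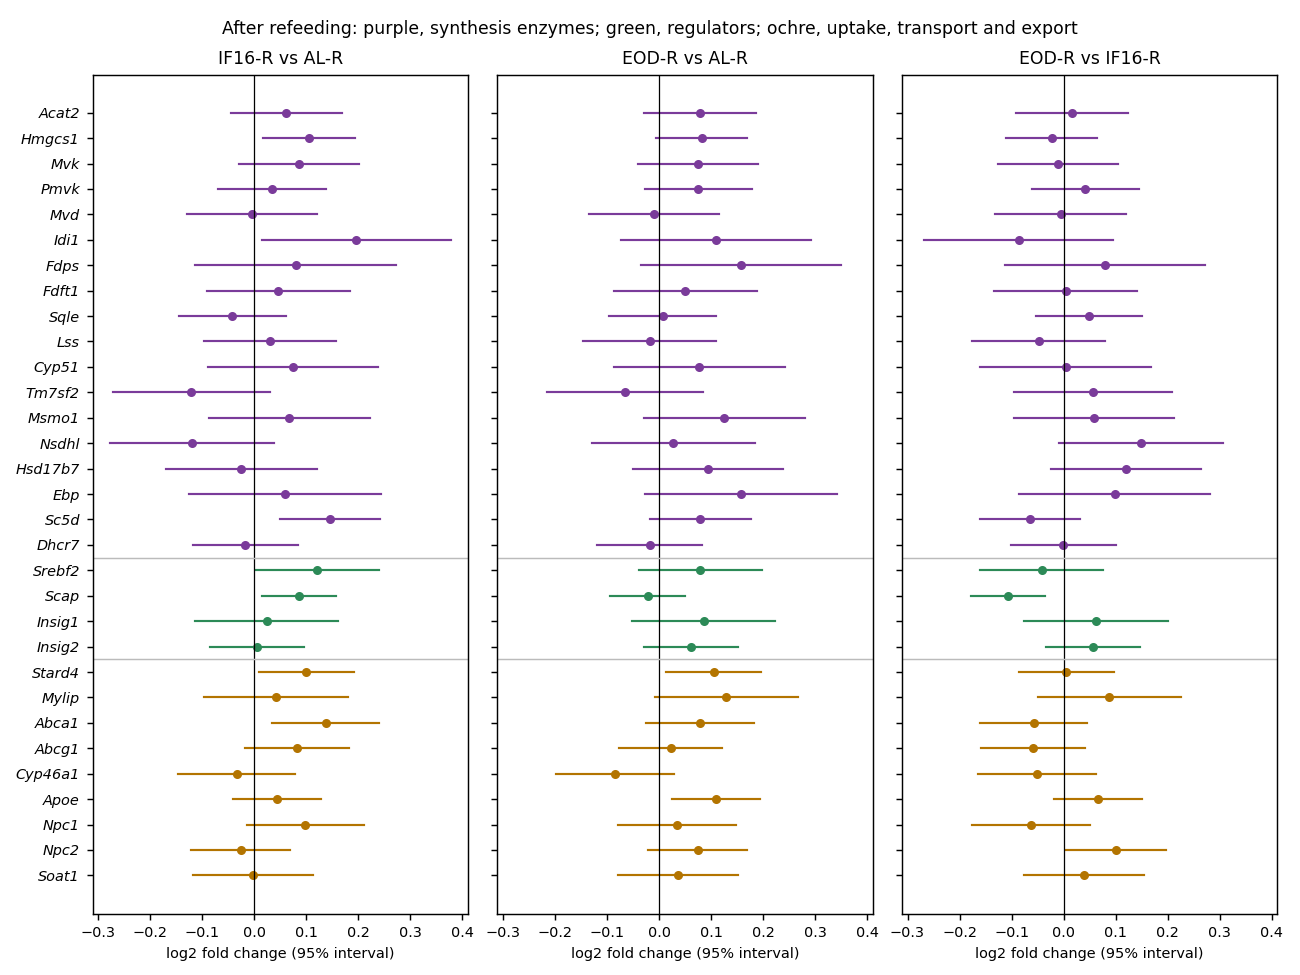
Log2 fold change of each gene with its 95% interval after refeeding, in IF16-R against AL-R, EOD-R against AL-R and EOD-R against IF16-R (n = 5 per group, edgeR). The axis is narrower than at the end of the regimens, and in the right panel the synthesis enzymes (purple) lie on both sides of 0.

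Whether a difference itself was unequal between the regimen and refed libraries was tested as an interaction over all 30 libraries and 16877 genes. These libraries differ in age, in table and in spread as well as in refeeding, which cannot be told apart here. For EOD against AL the interaction lay above 0 for 16 of 18 enzymes, where 51% of all genes did, with a median of 0.16 against 0.0048 over all genes. No member was among the 2 genes called by edgeR (0.0119%), DESeq2 called none, and both had 10 members at an unadjusted p under 0.05, all above 0, against 5.48% of all genes. These were 8 enzymes, Insig1 and Apoe. The count was 7 without the 3 libraries that stood apart, 4 with the length gradient and 5 with oligodendrocyte markers as a covariate. Of these 5, 4 enzymes lay above 0 and 1 transport gene below. Oligodendrocyte and microglia markers lay on the same side, each with 7 of 8 above 0 and 4 at that threshold, with medians of 0.20 and 0.23. Summed microglia markers spanned 133 to 177 CPM in AL, 124 to 137 CPM in EOD, 122 to 136 CPM in AL-R and 131 to 144 CPM in EOD-R, and their part was not tested. The highest AL values, 177 and 168 CPM, were those of AL replicates 4 and 5, while AL replicates 1 to 3 were at 140, 133 and 133 CPM. The smallest p-values were those of Msmo1 at 0.39 (SE 0.112, 95% interval 0.16 to 0.62, edgeR adjusted p = 0.297) and Sqle at 0.32 (SE 0.0971, 95% interval 0.12 to 0.52, edgeR adjusted p = 0.334). Fdft1 was at 0.38, Mvk at 0.41, Pmvk at 0.34 and Fdps at 0.36, with edgeR adjusted p-values from 0.449 to 0.466. Without the 3 libraries that stood apart Msmo1 was at 0.33 (SE 0.117) and Sqle at 0.27 (SE 0.0938).

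For EOD against IF16, an interaction added after seeing the data, 17 of 18 enzymes lay above 0, beside 50.5% of all genes, with a median of 0.18. Nothing was called by edgeR among members or all genes (0%), and 9 members were at an unadjusted p under 0.05 in edgeR and in DESeq2, beside 8.38% of all genes. In edgeR these were 7 enzymes above 0, and Scap and Npc1 below 0. Msmo1 was at 0.39 (SE 0.112), Nsdhl, a sterol dehydrogenase, at 0.30 (SE 0.105) and Hmgcs1 at 0.21 (SE 0.0738), each with an edgeR adjusted p of 0.542. For IF16 against AL 9 enzymes lay above 0 and 9 below, beside 49% of all genes above 0, and no member was among the 8 genes called by edgeR (0.0474%) or called by DESeq2. Scap alone was at an unadjusted p under 0.05 in both tools, against 3.93% of all genes above 0 at that threshold, at 0.26 (SE 0.0970, edgeR adjusted p = 0.534). That count of 1 became 4 without AL replicate 1, 3 without IF16 replicate 1 and 2 without IF16 replicate 2 or IF16-R replicate 1.

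A second list held 31 other genes of the pathway, such as proteases, receptors and sterol carriers, of which 30 passed the filter. None was called by edgeR in any comparison, and DESeq2 called 1, Scarb1 in EOD against AL (DESeq2 adjusted p = 0.0357), where it had 2 higher and 3 lower at an unadjusted p under 0.05. At the end of the regimens, in EOD against IF16, 16 of the 30 lay below 0 and 14 above, with a median of -0.0067 and none at an unadjusted p under 0.05. In EOD against AL 1 was higher and 3 were lower at that threshold. The smallest p was that of Scarb1, a receptor for high-density lipoprotein, at 13.2 ± 0.948 CPM in AL and 10.7 ± 0.407 CPM in EOD, with no overlap and a log2 fold change of -0.30 (edgeR adjusted p = 0.206). In IF16 against AL 2 were higher and 2 lower. Here the smallest p was that of Srebf1, which encodes the fatty acid counterpart of the Srebf2 factor and was chosen after its values were seen, at 77.9 ± 3.64 CPM in AL and 59.7 ± 11.6 CPM in IF16 (log2 fold change -0.39, edgeR adjusted p = 0.274). Its IF16 libraries reached 76.6 CPM and overlapped those of AL, the lowest of which was at 72.8 CPM. Srebf1 was also lower in EOD, at 63.4 ± 4.45 CPM with a highest library of 71.3 CPM, which did not overlap AL. In EOD-R against AL-R the smallest p of this list was that of Abcg4, a sterol exporter of neurons, at -0.11 (edgeR adjusted p = 0.392).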

How the data were processed

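RNA-seq libraries of 30 cerebellum samples in 6 groups of 5 were analysed; 12 ChIP and input samples were not analysed here. The authors deposited a table of whole-number read counts per gene for the regimens and one for refeeding, and these counts carried every test. The authors also deposited FPKM values, which follow from the counts, the listed gene lengths and the library totals (largest relative difference 4.97e-12). The submitters' processing notes name STAR 2.5, HTSeq 0.6.1, DESeq2 version 2 and mm10. Strandedness and the annotation release are not given in the sources used here, so overlapping or antisense genes may share reads. No column lacked a sample (0 columns).

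Counts were normalized by TMM within each table, filtered with filterByExpr (minimum count 10) and tested with edgeR 4.0.16 in R 4.3.3 by the quasi-likelihood test, fitted on 16577 genes for the regimens, 16444 for refeeding and 16877 for the interactions over both tables, with p-values adjusted by Benjamini-Hochberg over all of them and called below 0.05. Total counts per library ranged from 26799825 to 36167435. Log2 CPM used a prior count of 2. The scripts were tested on simulated data. No libraries were duplicates (chi-square per degree of freedom of 4.24 to 136 over 60 pairs within groups). The labels do not say that each library is a separate mouse, so p-values measure only the spread between these samples. The members and lists were chosen with earlier results of these data known. All 31 members are covered; per-library values are given for those called or, at an unadjusted p under 0.05, for at most the 6 with the smallest p, and others by mean or range.

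Alternatives were DESeq2 1.42.0, size factors of the RLE kind, no filter or a mean of at least 1 CPM, only the groups compared, the replicate number as a block, choroid plexus markers or the length gradient as a covariate, and each library left out. Chosen after seeing the data were leaving out the 3 libraries with a length gradient below -0.1, oligodendrocyte markers as a covariate, and the interaction of EOD against IF16. Promoter windows came from RefSeq on GRCm38.p6.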

Additional observations from a re-analysis of the deposited data

Results flagged for a closer look

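A library was marked where it lay farther from the rest of its group of 5 than Dixon's 95% critical value of 0.71 allows. This was met in 6 of the 186 combinations of gene and group examined, and chance marks about 1 in 20. In EOD, Mvd was at 25.7 CPM in replicate 5, where the next library was at 20.9, Tm7sf2 was at 18.9 CPM in replicate 4, where the next was at 23.3, and Npc1 was at 76.5 CPM in replicate 4, where the next was at 64.3. In AL, Cyp51 was at 37.9 CPM in replicate 5, where the next was at 41.3. In IF16-R, Dhcr7 was at 31.2 CPM in replicate 2, where the next was at 28.9. In EOD-R, Msmo1 was at 27.0 CPM in replicate 1, where the next was at 32.5.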

How the results depend on the processing

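No member was called in any comparison under any alternative run. Since that holds throughout, the adjusted threshold says nothing about stability. Of 1135 alternative values for 38 gene results, 1134 kept their direction, and many crossed the unadjusted threshold: with 1 library left out, Sqle in EOD against IF16 was at it in 7 of 15 fits, and Mvk in EOD against AL and Idi1 in IF16-R against AL-R in 11 of 15 each. The change of direction was Abca1 in IF16-R against AL-R, at -0.0048 with the length gradient as a covariate. The counts of all genes called by adjusted p (and of members at an unadjusted p under 0.05) moved more, and the cause was not tested. DESeq2 called 96 genes in IF16 against AL, 128 in EOD against AL, 1 in EOD against IF16, 103 in IF16-R against AL-R, 79 in EOD-R against AL-R, 121 in EOD-R against IF16-R, and 27 and 14 in the IF16 and EOD interactions. RLE factors gave 7 in EOD against AL. Without the filter there was 1 in EOD against IF16, 11 in EOD-R against AL-R, 6 in EOD-R against IF16-R and 4 in the EOD interaction. With only the groups compared there were 5 in IF16 against AL, 1 in EOD against IF16, 4 in EOD-R against AL-R, 0 in EOD-R against IF16-R and 4 in the IF16 interaction.

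The choroid plexus covariate gave 18 genes in EOD against AL and 16 in EOD-R against AL-R, with 13 members in EOD against AL and 4 in IF16-R against AL-R. Of those 13, 2 transport genes were higher in EOD and the others were lower. The length covariate gave 62 genes in IF16 against AL, 7 in EOD against AL, 1 in EOD against IF16, 0 in each refed comparison, and 36 and 6 in the IF16 and EOD interactions. Its members numbered 6 in IF16 against AL, 4 in EOD against AL, 0 in IF16-R against AL-R and in EOD-R against IF16-R, 6 in the IF16 and 4 in the EOD interaction, and the median member value of the EOD against IF16 interaction was 0.078. The oligodendrocyte covariate gave 39 genes in IF16 against AL, 4 in EOD against AL, 15 in IF16-R against AL-R, 3 in EOD-R against AL-R, and 20 and 5 in the IF16 and EOD interactions. Its members numbered 3 in EOD against AL, 3 in IF16-R against AL-R and 5 in the EOD interaction, whose median member value was 0.049. Without the 3 libraries that stood apart there were 2 genes and 3 members in EOD against AL, and the median member value of the IF16 interaction was -0.0028.

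With 1 library left out, the genes called ranged from 3 to 10 in IF16 against AL, 2 to 14 in EOD against AL, 0 to 1 in EOD against IF16, 0 to 65 in IF16-R against AL-R, 0 to 18 in EOD-R against AL-R, 0 to 71 in EOD-R against IF16-R, 5 to 16 in the IF16 interaction and 0 to 6 in the EOD interaction. The members ranged from 2 to 6, 3 to 13, 3 to 7, 2 to 11, 1 to 6 and 1 to 3 in the 6 comparisons in that order and from 1 to 4 in the IF16 interaction, and the median member difference of EOD against IF16 from -0.11 to -0.064.

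The replicate block gave 5 genes in IF16 against AL, 4 in EOD against AL, 95 in IF16-R against AL-R, 45 in EOD-R against AL-R, 40 in EOD-R against IF16-R and 10 in the EOD interaction, with 5 members in EOD against AL, 7 in EOD-R against AL-R, 6 in EOD-R against IF16-R and 2 in the IF16 interaction. The 7 were Fdps, Msmo1, Ebp, Insig1, Stard4, Mylip and Apoe. Neither table met the bar for pairing, a correlation over 0.1 in every same-numbered pair. At the end of the regimens the pairs ran from -0.53 to 0.32 (3 of 15 over the bar), with 0 of 15 libraries closest to their own number. In the refed table they ran from -0.05 to 0.43 (8 of 15 over it), with 10 of 15 libraries closest to their own number. This likeness of same-numbered libraries is seen in the data and is not stated in the design. Depth limits little here, since the smallest member count in a library was 277; the spread between libraries sets the intervals.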

Other observations

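Replicate 1 was the lowest library in each of the 3 refed groups for 8 of the 31 genes (25.8%), namely Idi1, Fdps, Fdft1, Cyp51, Msmo1, Ebp, Stard4 and Npc1, among them 6 of the 18 synthesis enzymes (33.3%). The same was found for 1028 of 16444 genes (6.25%). The labels do not say whether a replicate number marks a shared batch.

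In the refed groups the enzyme mean, in log2 CPM, ran from 4.75 to 4.86 in AL-R, 4.79 to 4.92 in IF16-R and 4.81 to 4.96 in EOD-R, with overlap between all 3 groups. Over those 15 libraries the enzyme mean and the mean of oligodendrocyte markers had a Pearson r of 0.410, while the mean of the 9 transport and export genes had an r of 0.740 with oligodendrocyte markers and 0.789 with astrocyte markers. These are descriptions of libraries that share a normalization.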
